A study of Mus musculus with 8 samples.

Results

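c-Jun binding was compared between EpiSCs, primed pluripotent stem cells derived from the mouse epiblast, and kEpiSCs, a Klf4-transgenic EpiSC line. The comparison rested on 2 lists of c-Jun ChIP-seq peaks, with 16166 peaks in EpiSCs and 6032 in kEpiSCs. Peaks were placed in 3 classes, defined by whether a peak of one list overlapped a peak of the other by at least 1 bp. Of the EpiSC peaks, 4573 were shared (28.3%, 95% Wilson interval 27.6 to 29.0%) and 11593 were EpiSC only. Of the kEpiSC peaks, 4575 were shared (75.8%, 74.7 to 76.9%) and 1457 were kEpiSC only. The shared class has 2 counts because 22 EpiSC peaks overlapped more than 1 kEpiSC peak and 20 kEpiSC peaks overlapped more than 1 EpiSC peak. The EpiSC list is longer, so it was also shortened to its 6032 peaks of highest −log10 q. Then 51.1% (49.8 to 52.3%) of EpiSC and 51.3% (50.0 to 52.6%) of kEpiSC peaks were shared. Lists of equal length give nearly equal shares by construction, so only the level of these shares is a result.

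The EpiSC line was labelled wild type, with the strain given as CBA/CaJ X C57BL/6J for its ChIP libraries. The study's methods give another cross for its EpiSCs, with males that carry an Oct4-GFP reporter. The kEpiSC line carried a Klf4 transgene, described as driven by a CAG promoter, and its labels give no strain. It is also described with the Oct4-GFP reporter, active in the naïve state, which by the methods is not particular to kEpiSCs. Both lines were grown under primed conditions, so the comparison sets primed cells with the Klf4 transgene against primed cells without it. For either line 2 ChIP and 2 input libraries stand behind a single peak list, and how the ChIP replicates were combined is not stated. No spread between replicates can be given. A difference between the lines can therefore not be told apart from a difference between 2 immunoprecipitations, and intervals cover counting error only. The antibody is given as c-Jun in the antibody field and in the methods, whereas H3K27ac is named in the labels' protocol. No expression data were analysed here, so the primed state was not checked against its markers.

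c-Jun is a subunit of AP-1, a dimer of basic leucine zipper proteins of the Jun, Fos, ATF and Maf families. Jun and Fos dimers bind TGACTCA, which reads TGAGTCA on the other strand, whereas dimers with ATF and CREB proteins prefer the longer cAMP response element (CRE) TGACGTCA. AP-1 acts mostly at distal enhancers, often beside TEAD factors, and its targets include immediate early, matrix and cytoskeletal genes. c-Jun has been described as a barrier when somatic cells are reprogrammed, and the study reports that it also hinders the return of primed cells to the naïve state. Klf4 is a zinc finger factor of the naïve state that binds CACC-like sequences.

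Sequences from the 3 classes are shown here because their content of AP-1 sites is compared between the classes. Each is 81 bases of the plus strand centred on the summit, from the RefSeq sequence of GRCm38.p6 (mm10), with exact AP-1 or CRE sites in capitals. Abca5 and Gpld1 name the genes nearest to high-ranking shared peaks, and Klf4 and Klf2 stand for shared peaks beside naïve pluripotency genes.
Abca5, chr11:110358375-110358455: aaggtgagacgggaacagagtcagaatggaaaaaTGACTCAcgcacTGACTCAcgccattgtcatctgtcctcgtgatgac
Gpld1, chr13:24949033-24949113: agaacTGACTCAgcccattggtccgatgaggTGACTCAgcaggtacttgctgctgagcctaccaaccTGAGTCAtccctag
Klf4, chr4:55541799-55541879: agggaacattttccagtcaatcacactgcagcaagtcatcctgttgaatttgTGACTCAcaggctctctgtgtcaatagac
Klf2, chr8:72311042-72311122: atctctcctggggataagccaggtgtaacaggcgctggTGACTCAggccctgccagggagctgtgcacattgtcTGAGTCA

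The next sequences are EpiSC only and show that the strongest peaks of this class were mixed: no exact site at Eif4ebp1, a CRE at Csrp1 and 1 AP-1 site each at Sorcs2 and Gja1. The Eif4ebp1 sequence does hold TGATTCA, which differs from the exact AP-1 site only in its central base.
Eif4ebp1, chr8:27245151-27245231: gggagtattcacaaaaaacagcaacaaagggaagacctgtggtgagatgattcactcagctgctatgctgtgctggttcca
Csrp1, chr1:135731991-135732071: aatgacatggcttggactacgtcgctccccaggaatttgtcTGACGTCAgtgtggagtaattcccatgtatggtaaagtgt
Sorcs2, chr5:36380098-36380178: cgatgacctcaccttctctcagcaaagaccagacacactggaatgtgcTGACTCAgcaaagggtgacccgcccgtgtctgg
Gja1, chr10:56486779-56486859: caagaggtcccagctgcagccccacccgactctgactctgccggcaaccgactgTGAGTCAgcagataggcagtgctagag

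The last set is kEpiSC only, with the highest-ranking peak of the class (Inpp5f), a distal peak (Anxa5), a promoter peak without an exact site (Rab3gap2) and a peak in intron 1 of the naïve gene Esrrb.
Inpp5f, chr7:128672021-128672101: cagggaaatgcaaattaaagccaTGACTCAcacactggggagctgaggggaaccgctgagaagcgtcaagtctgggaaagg
Anxa5, chr3:36349223-36349303: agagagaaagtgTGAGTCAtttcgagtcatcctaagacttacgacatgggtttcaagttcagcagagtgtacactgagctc
Rab3gap2, chr1:185204007-185204087: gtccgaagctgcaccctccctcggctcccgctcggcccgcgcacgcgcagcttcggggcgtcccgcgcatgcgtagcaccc
Esrrb, chr12:86398806-86398886: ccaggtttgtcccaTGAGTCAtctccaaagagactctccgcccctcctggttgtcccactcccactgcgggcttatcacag

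The classes were first described by strength, which the choice of members partly fixes, since a weak site is more easily missed in one list. Shared EpiSC peaks had a median width of 257 bp (quartiles 174 and 380), against 169 bp (127 and 249) for EpiSC only peaks. Their median fold enrichment over the local background was 8.21 (quartiles 6.25 and 10.9), against 5.82 (4.79 and 6.99). The median number of ChIP reads at the summit was 14 in shared and 9 in EpiSC only peaks. The kEpiSC list showed the same order, with a median width of 190 bp against 157 bp and a median fold of 7.57 against 6.15 for shared and kEpiSC only peaks. There the summit had a median of 16 reads in shared and 11 in kEpiSC only peaks. Peaks of 1 line were thus weaker and narrower at the median, but they overlapped the shared peaks in range. Of the EpiSC only peaks, 1387 (12.0%, 11.4 to 12.6%) exceeded the median fold of the shared EpiSC peaks, and of the kEpiSC only peaks 298 (20.5%, 18.5 to 22.6%) exceeded that of the shared kEpiSC peaks. Among the top quintile of kEpiSC peaks by fold, 95.9% (94.7 to 96.9%) were shared, against 62.1% (59.3 to 64.7%) in the lowest quintile. In the EpiSC list the same shares were 63.5% (61.8 to 65.1%) and 13.0% (11.8 to 14.1%).

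Few peaks lay close to the 1 bp boundary between classes, but a stricter rule moved many. With 50% reciprocal overlap, 18.9% of EpiSC and 50.7% of kEpiSC peaks were shared. Of the shared EpiSC peaks, 4215 overlapped their partner by more than 100 bp and 10 by 10 bp or less. The smallest overlap was 1 bp, at a peak of fold 3.60 nearest to Zfp131 (chr13:119790615-119790836). Just outside the threshold, a kEpiSC only peak (chr9:32285278-32285439, fold 6.70) and an EpiSC only peak (chr9:32285440-32285627, fold 6.84), both nearest to the potassium channel gene Kcnj5, touched without sharing a base. In all, 45 EpiSC only peaks (0.388%) and 35 kEpiSC only peaks (2.40%) had a peak of the other list within 100 bp. At the other end, 5513 EpiSC only peaks (47.6%, 46.6 to 48.5%) and 313 kEpiSC only peaks (21.5%, 19.5 to 23.7%) were more than 50 kb from any peak of the other list. The median gap was 44.4 kb for EpiSC only and 11.8 kb for kEpiSC only peaks. The EpiSC list is the longer of the lists, so a kEpiSC peak has a nearer neighbour in it on that ground alone.

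At shared sites the summits of both lines were close, with a median distance of 24 bp (quartiles 10 and 49) and 87.7% within 100 bp. The fold in kEpiSCs had a median log2 ratio to EpiSCs of -0.10 (quartiles -0.46 and 0.28), and 43.2% of the 4573 pairs were higher in kEpiSCs. These folds come from lists with different scaling, so the median shift has no reading of its own. Across the shared sites the log2 folds had a Pearson r of 0.43 and a Spearman rho of 0.39, a description over sites that share the libraries of their line. Promoter pairs (247) had a median log2 ratio of -0.01, and intronic (2071) and intergenic (2086) pairs of -0.10 each. At the ends of this range, picked after their values were seen, a peak nearest to Aff1 had a fold of 4.17 in EpiSCs and 15.4 in kEpiSCs. Conversely, a peak nearest to Itih5 had 17.1 in EpiSCs and 3.54 in kEpiSCs. Both held 1 AP-1 site.

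**Figure D1:**
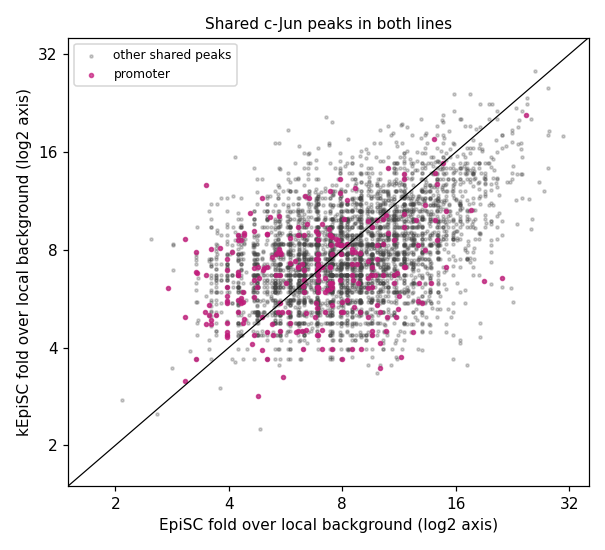
Fold enrichment over the local background of each shared c-Jun peak in EpiSCs (x axis) and kEpiSCs (y axis), both on log2 axes, with promoter peaks coloured and the line of equality drawn. The points scatter broadly around the line, with a median log2 ratio of -0.10.

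AP-1 sites were more frequent in shared peaks than in peaks of 1 line. An exact site lay in the central 200 bp of 59.1% (57.7 to 60.5%) of shared EpiSC peaks and of 40.7% (39.8 to 41.6%) of EpiSC only peaks, a difference of 18.5 percentage points (95% Newcombe interval 16.8 to 20.1). In the kEpiSC list the shares were 62.4% (60.9 to 63.8%) and 46.5% (44.0 to 49.1%), a difference of 15.8 points (12.9 to 18.7). Windows of the same length 2000 bp away held a site in 4.36% and 3.89% of cases for shared and EpiSC only peaks, and in 4.30% and 3.47% for shared and kEpiSC only peaks. Every class was therefore far above its own flanks, those found in 1 line included. kEpiSC only peaks held the site more often than EpiSC only peaks, by 5.88 points (3.18 to 8.60), but this order turned with the EpiSC list shortened to the length of the kEpiSC list. The difference was then -4.99 points (-7.53 to -2.45), with a site in 56.3% of EpiSC only and 51.3% of kEpiSC only peaks.

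The number of sites followed the same order. At least 2 AP-1 sites were present in 15.0% (14.0 to 16.1%) of shared EpiSC peaks and 5.49% (5.09 to 5.92%) of EpiSC only peaks. In the kEpiSC list these shares were 16.2% (15.1 to 17.2%) and 5.77% (4.68 to 7.08%). Read the other way, 21.4% (20.5 to 22.2%) of EpiSC peaks without a site were shared, 33.1% (31.9 to 34.3%) with 1, 51.1% (48.3 to 53.9%) with 2 and 60.4% (51.1 to 69.0%) with 3 or more. In the kEpiSC list the shares were 68.9%, 78.1%, 89.0% and 96.4%, the last of 84 peaks (90.02 to 98.78%).

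**Figure D2:**
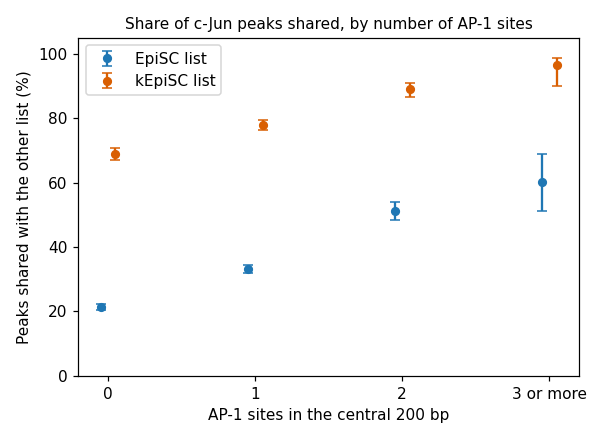
Share of c-Jun peaks that overlap a peak of the other line (y axis, %) by the number of AP-1 sites in the central 200 bp (x axis), for each list, with 95% Wilson intervals. In both lists the share is higher with each added site, from 21.4 to 60.4% in EpiSCs and from 68.9 to 96.4% in kEpiSCs.

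Peak width was used as a rough control for weak peaks. In each quintile of the EpiSC list by width, shared peaks held an AP-1 site more often, with differences between 17.4 points (14.1 to 20.7) in the widest quintile and 28.2 points (22.8 to 33.1) in the narrowest. Standardised to the widths of the EpiSC only peaks, the difference was 24.5 points (22.5 to 26.4), and to those of the kEpiSC only peaks in the kEpiSC list 18.5 points (15.6 to 21.4). Fold enrichment gave a different picture. In the lowest quintile of the EpiSC list by fold, 47.3% (42.6 to 52.0%) of shared and 26.3% (24.7 to 27.9%) of EpiSC only peaks held a site. In the top quintile the shares were 63.6% (61.5 to 65.7%) and 61.0% (58.2 to 63.8%), a difference of 2.58 points with an interval that spans 0 (-0.88 to 6.06). In the top quintile of the kEpiSC list the difference was 8.92 points, also with an interval that spans 0 (-3.66 to 23.3, 48 kEpiSC only peaks). The difference standardised by fold was 14.2 points (12.1 to 16.3) in the EpiSC list and 11.1 points (8.08 to 14.1) in the kEpiSC list. In the central 200 bp, strong EpiSC only peaks thus held AP-1 sites nearly as often as strong shared peaks, within an interval that allows up to 6.06 points. In that window the separation lay among the weaker peaks. A site outside it, as in a wide peak, is not counted, and shared peaks were wider. Over whole peaks of any fold, 71.8% of shared EpiSC and 42.8% of EpiSC only peaks held a site. Quintiles by fold were not scored over whole peaks. In the lowest quintile by fold, shared peaks had a median of 10 reads at the summit and EpiSC only peaks of 7 at the same median fold of 4.23, so equal fold did not mean equal reads. With the shortened EpiSC list, which keeps its stronger peaks, the difference in AP-1 share was 5.64 points (3.16 to 8.12).

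**Figure D3:**
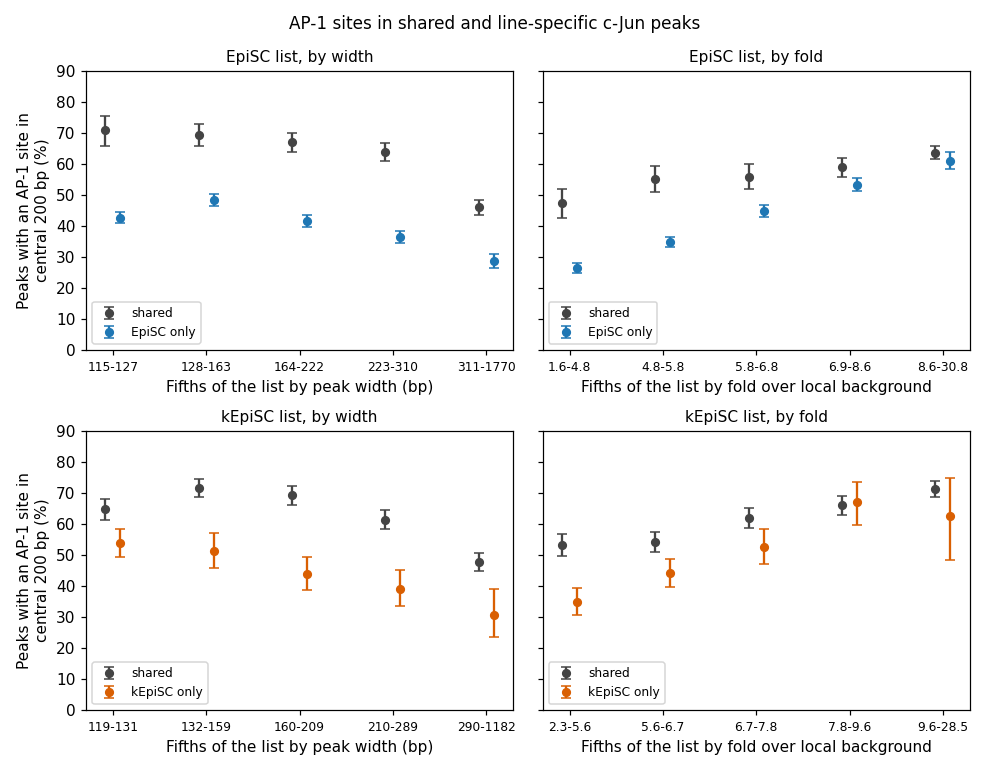
Share of peaks with an AP-1 site in the central 200 bp (y axis, %) in quintiles of each list by peak width (left) and by fold over local background (right), for shared peaks and peaks of 1 line, with 95% Wilson intervals. The classes are apart in every quintile by width, and in the EpiSC list they close from 47.3 against 26.3% to 63.6 against 61.0% with fold.

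The classes also differed in location. Promoters, taken as 1000 bp upstream to 100 bp downstream of a transcription start site (TSS), held 5.40% (4.78 to 6.09%) of shared EpiSC peaks and 11.5% (10.96 to 12.13%) of EpiSC only peaks, a difference of -6.13 points (-6.99 to -5.23). The difference standardised by width was -6.08 points (-7.01 to -4.94), by fold -4.25 points (-5.36 to -2.92) and with the shortened EpiSC list -4.06 points (-5.31 to -2.82). In the kEpiSC list promoters held 5.42% (4.80 to 6.12%) of shared and 15.0% (13.29 to 16.96%) of kEpiSC only peaks, a difference of -9.61 points (-11.6 to -7.73). From quintile 1 (lowest) to quintile 5 of that list by fold, it was -12.7, -7.86, -6.47, -1.92 and -7.25 points. The interval spanned 0 in quintile 4 alone (-6.72 to 1.30), and quintile 5 held 48 kEpiSC only peaks. Introns and intergenic sequence together took most of every class, with 45.3% and 45.6% of shared EpiSC peaks, 43.5% and 39.7% of EpiSC only peaks and 41.8% and 38.6% of kEpiSC only peaks. The median distance to the nearest protein-coding TSS was 26.1 kb for shared EpiSC, 20.7 kb for EpiSC only and 20.4 kb for kEpiSC only peaks. Peaks of 1 line had a mean of 4.99 (EpiSC only) and 5.63 (kEpiSC only) CpG dinucleotides in 200 bp, against 3.85 in shared EpiSC peaks. Promoter peaks were weaker than distal ones, with a median fold of 5.29 for EpiSC only promoters and 5.95 for both introns and intergenic sequence.

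The difference in AP-1 sites was present within each kind of location. In introns a site lay in 61.4% (59.3 to 63.4%) of shared EpiSC and 45.7% (44.3 to 47.0%) of EpiSC only peaks, and in intergenic sequence in 60.5% (58.4 to 62.6%) and 44.5% (43.1 to 45.9%). At promoters the shares were 33.6% (28.0 to 39.7%) and 13.2% (11.5 to 15.1%), and in the kEpiSC list 34.7% (29.0 to 40.8%) and 15.1% (10.9 to 20.4%). The CRE was most frequent at promoters. It was found in 15.4% (11.4 to 20.4%) of shared and 5.53% (4.43 to 6.89%) of EpiSC only promoter peaks, but in at most 1.65% of the intronic or intergenic peaks of these classes. Neither site was present in 38.9% (37.5 to 40.3%) of shared EpiSC, 57.5% (56.6 to 58.4%) of EpiSC only and 51.3% (48.7 to 53.8%) of kEpiSC only peaks.

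**Figure D4:**
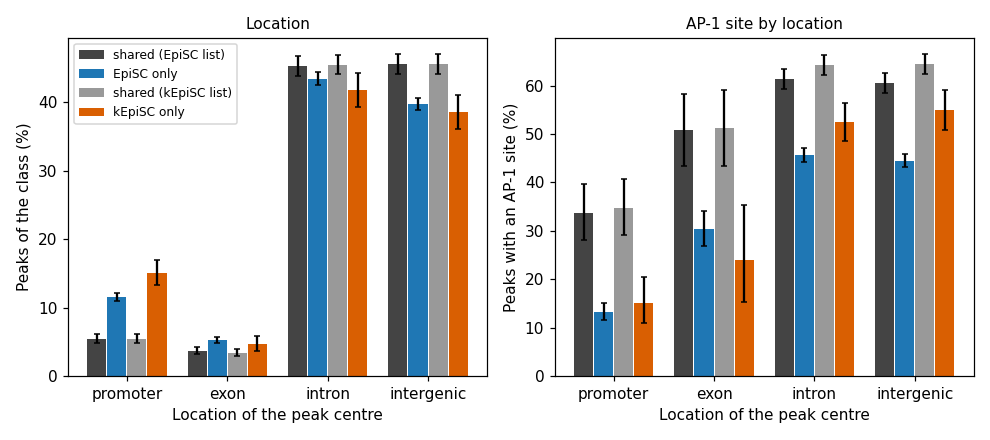
Left, share of the peaks of each class (y axis, %) by location of the peak centre, and right, share of the peaks at each location with an AP-1 site in the central 200 bp, as bars with 95% Wilson intervals. Promoters take 5.40% of shared EpiSC peaks but 11.5% of EpiSC only and 15.0% of kEpiSC only peaks, and AP-1 sites are more frequent in shared peaks at each location.

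Other motifs separated the classes less. TEAD factors, the partners of YAP, bind CATTCC, which was present in 20.4% (19.3 to 21.6%) of shared EpiSC peaks and 16.7% (16.1 to 17.4%) of EpiSC only peaks, against 10.3% and 10.2% of their flanks. The difference was 3.71 points (2.38 to 5.08), and 3.80 points (1.48 to 5.99) in the kEpiSC list. The AP-1 site followed by GC, which extends it toward the longer site preferred by Maf proteins, was present in 22.3% (20.7 to 23.9%) of shared EpiSC and 18.5% (17.4 to 19.6%) of EpiSC only peaks with an AP-1 site. Promoter motifs lay in the opposite direction. The GC box GGGCGG, bound by Sp1, was present in 7.96% (7.21 to 8.78%) of shared EpiSC, 11.7% (11.1 to 12.3%) of EpiSC only and 13.7% (12.0 to 15.5%) of kEpiSC only peaks. The ETS site CCGGAAG was present in 2.36%, 3.55% and 4.19% of these classes. The site of CTCF, the insulator protein, was rare, with 13 of 4573 shared (0.284%, 0.166 to 0.486%) and 110 of 11593 EpiSC only peaks (0.949%, 0.788 to 1.14%). Peaks mostly within soft-masked repeats made up 2.95% (2.50 to 3.48%) of shared EpiSC and 5.77% (5.36 to 6.21%) of EpiSC only peaks.

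Because kEpiSCs carry Klf4, the KLF motif CCNCNCCC was compared between the peaks of 1 line. It was present in 25.5% (23.4 to 27.8%) of kEpiSC only and 25.3% (24.5 to 26.1%) of EpiSC only peaks, a difference of 0.25 points with an interval of -2.07 to 2.68. The difference standardised by width was 0.39 points (-1.85 to 2.89). Locations differed in sign. At promoters the motif was present in 56.2% of 219 kEpiSC only and 47.9% of 1337 EpiSC only peaks, a difference of 8.30 points (1.15 to 15.2). In introns the difference was -1.41 points (-4.60 to 2.12) and in intergenic sequence -2.91 points (-6.24 to 0.79), both with intervals that span 0. The split by location was made after the pooled value was seen. Shared EpiSC peaks held it in 24.9% of cases, and the flanks of the 3 classes in 18.4% (shared), 17.8% (EpiSC only) and 20.0% (kEpiSC only). Of the other motifs of pluripotency factors, the octamer ATTTGCAT, the SOX site CCATTGT and the ESRRB site TCAAGGTCA differed between kEpiSC only and EpiSC only peaks by -0.23, 0.69 and 0.15 points, each with an interval that spans 0.

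Of the 10 shared peaks with the highest −log10 q, 7 had an exact AP-1 site in the central 200 bp and 10 had one anywhere in the peak, against 59.1% and 71.8% of all shared EpiSC peaks. Of the 10, 8 were intergenic and 2 intronic, and their folds were 24.7 to 30.8 in EpiSCs and 11.4 to 28.5 in kEpiSCs. The first lay 20.7 kb upstream of Abca5, a lipid transporter gene, with a fold of 30.8 in EpiSCs and 17.9 in kEpiSCs. Mdm2, the ubiquitin ligase that restrains p53, had its peak 10961 bp upstream with 28.2 and 18.5. Gpld1 had one in intron 3 with 28.1 and 14.3, and Fars2, a mitochondrial tRNA synthetase gene, one in intron 1 with 28.1 and 25.2. The other 6 were nearest to Slco2a1, Fem1c, Hrob, Smndc1, Sec11c and Sgk1, the serum and glucocorticoid kinase gene whose peak was 91728 bp upstream.

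The 10 highest-ranking EpiSC only peaks had folds of 15.9 to 19.8 and 25 to 29 reads at the summit. Of these, 5 held an exact AP-1 site anywhere in the peak, against 42.8% of all EpiSC only peaks. The strongest lay 15085 bp upstream of Eif4ebp1, the translation inhibitor 4E-BP1 (chr8:27245088-27245396, fold 19.8), with no exact site. Next came a peak in the 3' UTR of Pcyox1 (chr6:86388562-86388758, fold 19.8) and one in intron 1 of Csrp1, an actin-associated LIM protein gene (chr1:135731779-135732191, fold 18.0), which held the CRE shown above. The gap junction gene Gja1 had a peak 109545 bp from its start (fold 17.7), and the BMP receptor gene Bmpr1b was nearest to one in intron 11 of Unc5c (fold 17.8). The other 5 were nearest to Sipa1l3, Xirp1, Sorcs2, Tomm20 and Cnot10. For 5 of the 10 the nearest kEpiSC peak was more than 50 kb away, whereas at Xirp1 it was 321 bp away.

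The 10 highest-ranking kEpiSC only peaks had folds of 11.3 to 15.9 and 21 to 28 reads. Of these, 6 held an exact AP-1 site anywhere in the peak, against 46.3% of all kEpiSC only peaks. The first was in intron 9 of Inpp5f, an inositol phosphatase gene (chr7:128671740-128672233, fold 15.9), 48529 bp from the nearest EpiSC peak. A promoter peak lay 113 bp upstream of Rab3gap2 (chr1:185203980-185204130, fold 11.4), and intronic peaks lay in intron 13 of Vcan, the gene of the matrix proteoglycan versican (fold 11.3), and intron 1 of the kinase gene Nek6 (fold 12.0). The Nek6 peak was 231 bp from an EpiSC peak. The other 6 were nearest to Rnf115, Ampd1, Sh3bp4, Anxa5, Agfg1 and Lpin2.

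Some genes were nearest to many peaks of all 3 classes. They were picked for having the most peaks of a class, so high counts are built in. Within 10 kb of a TSS, 278 of the 632 genes near a kEpiSC only peak (44.0%, 40.2 to 47.9%) had an EpiSC peak too. Of all 21000 protein-coding genes, 4570 had an EpiSC peak within that distance. Among all genes with a kEpiSC peak, shared peaks included, the share was 79.6%. Trib1, a pseudokinase gene, was the nearest gene of 10 shared EpiSC, 18 EpiSC only and 7 kEpiSC only peaks. Reep3 had 11, 17 and 4, and Dst, the gene of the cytolinker dystonin, had 6, 15 and 6. Bhlhe40, a circadian repressor gene, had 5, 18 and 4, and Tgif1, a repressor of TGF-beta signalling, 7, 18 and 0. Sgms1 and Phlda1 were among the genes with most shared peaks, with 11 and 10, as was Irf2bp2 with 10. Apbb2 and Rybp had 5 kEpiSC only peaks each but a single shared peak each.

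Around Pou5f1, which encodes Oct4, both lists held a run of peaks over an unusually high local background. The EpiSC list had 14 peaks there, 11 of them shared, and the kEpiSC list 13, of which 11 were shared. The local background behind them was 5.21 to 18.7 in EpiSCs and at least 4.00 in kEpiSCs, against list medians of 0.635 and 0.488. Whether this run reflects c-Jun binding was not tested.

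The X chromosome had the lowest shares apart from Y. The share of EpiSC peaks that were shared lay between 25.1 and 32.7% on the autosomes and was 16.7% (10.5 to 25.4%) of 96 peaks on X. For kEpiSC peaks it lay between 72.7 and 79.4% on the autosomes and was 51.6% (34.8 to 68.0%) of 31 on X. The EpiSC list had 2 peaks on Y, both EpiSC only, and the kEpiSC list 0.

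Genes were then grouped by peaks within 10 kb of their TSSs. Of 21000 protein-coding genes, 1381 (6.58%) had a peak in both lines, 3189 (15.2%) in EpiSCs alone and 355 (1.69%) in kEpiSCs alone. Of the genes with an EpiSC peak, 30.2% (28.9 to 31.6%) also had a kEpiSC peak, and of the genes with a kEpiSC peak 79.6% (77.6 to 81.4%) also had an EpiSC peak. The genes in both groups mostly had the very same site, since 1219 of the 1381 (88.3%) had at least 1 shared peak. Genes of EpiSCs alone had weaker peaks, with a median highest EpiSC fold of 5.73 against 7.94 for genes of both lines. In the 18 gene lists below, which were assembled with earlier results of these data known, counts are given beside these background shares and without a test. The folds given for a gene with peaks in both lines are those of its peak of highest −log10 q in each line. For 59 of the 95 such genes in the lists these were the same site, and where they were not, it is said beside the values.

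Jun, Fos, ATF and Maf genes and their partners numbered 27, of which 11 had a peak in both lines, 6 in EpiSCs alone and 1 in kEpiSCs alone. Jun itself had a peak about 1 kb wide in its single coding exon, with a fold of 15.9 in EpiSCs and 7.42 in kEpiSCs, and a second one at its promoter with 8.94 and 7.82. The exon peak held no exact AP-1 site in either line. Its local background in kEpiSCs was 3.00, against a list median of 0.488. Whether the exon peak reflects c-Jun binding was not tested. Fosb had 16.4 and 10.2 and Junb 10.8 and 9.89, each at 1 shared site. Mafk, a small Maf gene, had its strongest peaks at different sites, with 13.6 in EpiSCs and 7.48 in kEpiSCs. Fosl2, a Fos family gene, had a peak in EpiSCs alone 620 bp upstream with a fold of 5.69, and Atf6 and Atf4, genes of the unfolded protein response, had 5.40 and 5.12. Nfe2l2, the gene of the antioxidant factor Nrf2, was the member of kEpiSCs alone, with 5.49 at its promoter. Members with a peak in 1 line alone had folds of at most 5.95.

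Of 32 AP-1 target and immediate early genes, 13 had a peak in both lines, 11 in EpiSCs alone and 0 in kEpiSCs alone. Vim, the gene of the intermediate filament vimentin, had nearly equal folds of 14.8 and 14.8 at a peak with 2 AP-1 sites. Trib1 had 12.7 and 9.51, also at a shared site. Plaur, the urokinase receptor gene, had 12.4 in EpiSCs and 12.1 in kEpiSCs at different sites, each of them shared. Strong peaks in EpiSCs alone lay near Ier5, an immediate early gene, with a fold of 16.5, the stress gene Gadd45b with 11.6, where a kEpiSC peak 445 bp away lay beyond the 10 kb limit, and the EGF family ligand gene Ereg with 9.58. Cdkn1a, the gene of the cell cycle inhibitor p21, had 7.55 in EpiSCs alone.

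Of 31 naïve pluripotency genes, 8 had a peak in both lines, 11 in EpiSCs alone and 1 in kEpiSCs alone. Klf2 had a shared peak 8007 bp upstream with folds of 9.91 in EpiSCs and 12.7 in kEpiSCs, and Klf4 had one 9340 bp upstream with 11.9 and 8.87. Both sequences are shown above with their AP-1 sites. The Klf4 peak lies outside the transcribed sequence of the gene. Dppa5a had an upstream shared peak with 13.0 and 6.15, without an exact AP-1 site, and a second, EpiSC only peak with 6.16, 836 bp from the nearest kEpiSC peak. The receptor subunit gene Il6st had 9.90 and 9.41.

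Esrrb, an orphan nuclear receptor gene, had several peaks over its locus. In EpiSCs 4 shared peaks had folds of 6.16, 7.41, 8.47 and 5.29, and their kEpiSC partners 6.15, 4.38, 5.14 and 6.31. The last of them lay in coding exon 7 in EpiSCs and, with its centre on the other side of the boundary, in intron 6 in kEpiSCs. An EpiSC only peak (5.99) lay 56 bp from the nearest kEpiSC peak, and the kEpiSC only peak shown above (6.76) was 2999 bp from an EpiSC peak. Among the naïve genes bound in EpiSCs alone, Pecam1, an adhesion molecule gene, had the highest fold (9.52). Nanog had a peak 4540 bp upstream with a fold of 4.76 and 8 reads, Zfp42 one in intron 1 with 4.11 and 5 reads, and Tfap2c one at an alternative promoter with 4.04 and 8 reads. Gdf3 had one 8098 bp upstream with 6.16 and 8 reads. Prdm14 and Tet2 had EpiSC only peaks further away, with folds up to 7.94 and 6.16. Conversely, Fbxo15 had a peak in kEpiSCs alone 415 bp upstream with 6.98, and Tfcp2l1 had a single peak, kEpiSC only, in intron 2 beyond 10 kb of its start, with 6.07 and 14 reads. Zfp42 was 25948 bp and Nanog 69728 bp from the nearest kEpiSC peak.

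Of 21 Klf family genes, which include Sp1, 6 had a peak in both lines and 2 in EpiSCs alone, Klf13 with a fold of 8.47 and Sp1 with 7.43. Beside Klf2 and Klf4, Klf3 (8.63 and 7.09) was among those with a shared site, and Klf6 had 8.21 in EpiSCs and 7.78 in kEpiSCs at different sites, the latter a kEpiSC only peak. Of 29 primed pluripotency genes, 7 had a peak in either list (24.1%, against 23.5% of all genes). The tight junction gene Cldn6 had peaks in both lines, with 8.11 in EpiSCs and 6.70 in kEpiSCs at different sites, 5 had one in EpiSCs alone, led by the ERK target Etv5 (11.2), and Krt18 had one in kEpiSCs alone (5.56). Fgf5 and Sox2 had no peak in the gene or within 10 kb in either list. Of 13 core genes of both pluripotent states, 2 had peaks in both lines, Pou5f1 and Kdm1a, 4 in EpiSCs alone and Tcf3 in kEpiSCs alone (6.31). Pou5f1 is counted through the run of peaks over an unusually high local background described above.

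Of 26 integrin, lamin and matrix genes, 11 had a peak in both lines, 3 in EpiSCs alone and 3 in kEpiSCs alone, so that 11 of the 14 with an EpiSC peak had a kEpiSC peak too (78.6%, 52.4 to 92.4%). Over all genes with an EpiSC peak this share was 30.2%. The median highest EpiSC fold of the list was 7.73, above the 6.16 of all genes with an EpiSC peak. Krt8, a keratin gene, had 20.8 in EpiSCs and 10.4 in kEpiSCs, the matrix gene Sparc 12.8 and 11.2, and the integrin gene Itgav 10.5 and 8.72, each at a shared site. The lamin gene Lmna had an EpiSC only peak with 11.7, and its strongest kEpiSC peak, with 7.57, was another site. Lamb1 and Itgb4 counted as bound in both lines through an EpiSC only and a kEpiSC only peak, 545 bp and 129 bp apart. The 3 genes of kEpiSCs alone were Itgb5, Krt18 and Lmnb1, with folds of 5.62, 5.56 and 4.76. Among the adherens junction genes (25), peaks in both lines were found at 8, led by Kifc3 (15.7 and 12.7) and Ajuba (14.3 and 11.3), in EpiSCs alone at 6, led by Jup (8.01), and at Cdh1, the E-cadherin gene, in kEpiSCs alone at its start (4.23). Of 30 actin and focal adhesion genes, 9 had a peak in both, such as Rock2 (10.4 and 4.51), 11 in EpiSCs alone, such as Diaph3 (11.6), and Actn1 in kEpiSCs alone. Of 23 Hippo pathway genes, 6 had a peak in both, led by Vgll4 (13.8 and 9.80), Ajuba and Tead4 (9.41 and 13.4), 7 in EpiSCs alone, among them Wwtr1, which encodes TAZ (7.18), and Ptpn14 in kEpiSCs alone.

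Of 26 Wnt pathway genes, Wnt5b had peaks in both lines, at different sites (10.6 at an EpiSC only peak and 5.15 in kEpiSCs), and 7 had one in EpiSCs alone, among them Wnt5a (7.53) and Axin2 (5.47). A peak in both lines was found at 3.85% of Wnt genes, against 6.58% of all genes. For a peak in either line the shares were 30.8% and 23.5%. Of 25 Activin, Nodal and TGF-beta genes, 4 had peaks in both, with Smad7 at 5.48 and 9.47 and Tgif1 at 7.55 and 9.84, and 8 had a peak in EpiSCs alone. Of 27 FGF and ERK genes, 6 had peaks in both, with the phosphatase gene Dusp5 at 9.79 and 8.25, 7 in EpiSCs alone and Spry2 in kEpiSCs alone. Of 18 LIF and Stat3 genes, Il6st and Pim1 had peaks in both, the latter with 12.2 at an EpiSC only peak and 11.9 in kEpiSCs at another site, and 6 had a peak in EpiSCs alone, among them the receptor gene Lifr (6.16) and Socs3 (4.16).

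Among the remaining lists, 1 of 28 cell cycle genes had a peak in both lines, Cdkn2a (5.58 and 7.63), 9 in EpiSCs alone and Ccnd3 and Wee1 in kEpiSCs alone. The share in both lines was 3.57%, against 6.58% of all genes, and in either line 42.9%, against 23.5%. Of the 10 cell cycle genes with an EpiSC peak, 10.0% (1.79 to 40.4%) had a kEpiSC peak too, the lowest share among the lists. This interval includes the 30.2% of all genes with an EpiSC peak. The median highest EpiSC fold of the list was 5.96, against 6.16 for all such genes. Of 30 chromatin repressor and DNA methylation genes, Tet3 (8.99 and 10.7) and Dnmt1 (7.94 and 9.18) had peaks in both and 7 in EpiSCs alone, among them Mbd3 (8.44). Peaks in both lines were thus found at 6.67% of these genes, against 6.58% of all genes. In either line the shares were 30.0% and 23.5%. Of 30 apoptosis and p53 genes, 5 had a peak in both, with Bak1 at 5.48 and 14.2 and Birc2 at 11.5 and 3.74, 10 in EpiSCs alone, among them Xiap (11.6), and Bmf and Cycs in kEpiSCs alone. Mdm2 counted as EpiSCs alone through a peak of fold 4.79, since its strong shared peak lay beyond 10 kb. Of 30 protein folding genes, 6 had a peak in both, led by Cct7 (13.6 in EpiSCs and 7.43 in kEpiSCs at sites 236 bp apart), 11 in EpiSCs alone, led by Dnajb6 (10.4), and Hsp90ab1 in kEpiSCs alone. Each of these lists holds few genes, and the intervals of such shares are wide.

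**Figure D5:**
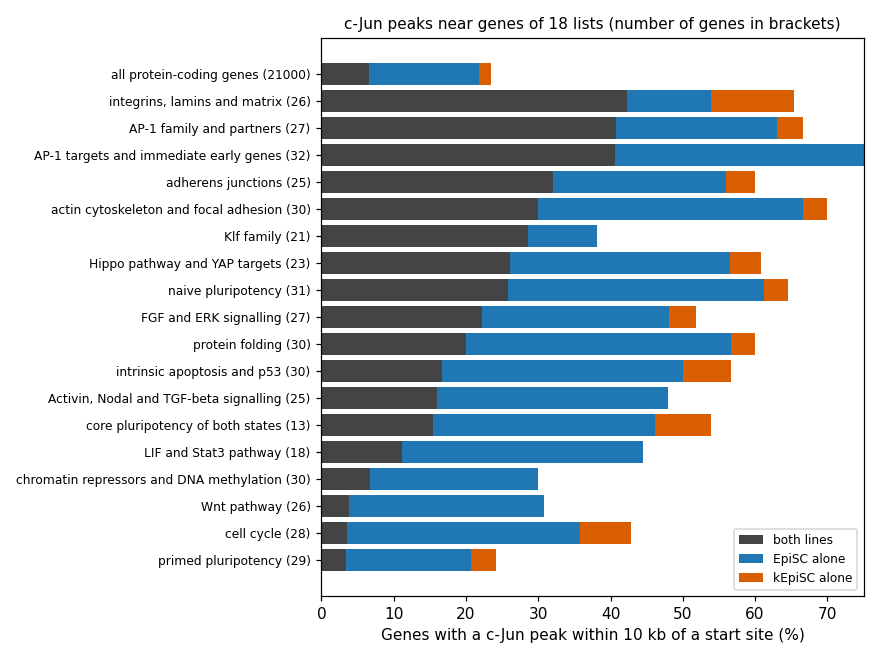
Share of the genes of each of 18 lists (x axis, %) whose TSSs had c-Jun peaks up to 10 kb away in both lines, in EpiSCs alone or in kEpiSCs alone, as stacked bars, with all protein-coding genes at the top. Integrins, lamins and matrix (11 of 26 genes), the AP-1 family (11 of 27) and AP-1 targets (13 of 32) have the longest bars for both lines, against 6.58% of all genes.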

How the data were processed

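c-Jun ChIP-seq of 2 mouse lines was used, with 8 libraries in all. The authors mapped reads to mm10 with Bowtie2, kept unique ones and ran MACS2 with default settings against input. Tool versions and the pooling of replicates were not given in the sources used here. Each deposited list holds, per peak, a score (10 times −log10 q, as whole numbers), the fold over local background, −log10 values of p and q, and the summit in bp from the peak start. Reads at the summit were solved from the deposited fold and −log10 p, within 0.01 for 100% of peaks. Their median was 10 in EpiSCs and 14 in kEpiSCs, where 1 read counted as 0.775.

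Locations and nearest genes were taken from RefSeq (45550 curated transcripts, GRCm38.p6). A peak centre in a promoter counted first, then exon, intron and intergenic sequence. The letters of 20 motifs were matched, on either strand, to the 200 bp around each peak centre and to windows 2000 bp to each side. Standardised differences used 5 strata. Named genes were those nearest to the 10 peaks of highest −log10 q per class, the 5 genes with most peaks per class, up to 4 genes per list and group by −log10 q, and genes the study names. Intervals are Wilson (shares) or Newcombe (differences) at 95%. With 1 list per line no test was run. Members, gene lists and motifs were chosen with earlier results of these data known. Alternatives varied the overlap, q threshold, list length, motif, window, promoter, strata, distance and chromosomes. Scripts were tested on simulated data, with pandas 2.3.3, pysam 0.24.0, scipy 1.17.1 and numpy 2.4.6 under Python 3.11.15.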

Additional observations from a re-analysis of the deposited data

How the results depend on the processing

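No paired analysis was possible because neither line has more than 1 peak list. Leaving out a replicate was not possible either. Of 124 values under alternatives, 80 stayed within the interval of the reported value (gene counts within 1.5 times), 43 moved beyond it and 1 reversed. The reversed one is the AP-1 share of kEpiSC only minus EpiSC only peaks, -4.99 points with lists of equal length (10.9 with 50% reciprocal overlap), a result whose alternatives were added after seeing the data. The KLF difference, whose interval spans 0, changed sign under 4 alternatives as it stands and under 4 standardised, down to -1.12 points over whole peaks. In the order EpiSC list then kEpiSC list, the share of shared peaks was 18.9 and 50.7% with 50% reciprocal overlap, 24.9 and 66.7% with summits within 100 bp, 32.5 and 80.0% with peaks up to 1000 bp apart, 51.1 and 51.3% with EpiSC and kEpiSC lists of equal length, and 31.2 and 79.9% with a −log10 q of at least 3. The difference in AP-1 share, in points, was 23.0 and 12.0 with 50% reciprocal overlap, 13.9 and 11.4 with peaks up to 1000 bp apart, 15.5 and 12.3 with a −log10 q of at least 3, 25.1 and 20.5 around the summit, and 29.0 and 22.5 over whole peaks. It was 19.5 in the kEpiSC list with summits within 100 bp and 5.64 in the EpiSC list with lists of equal length. Standardised by width, it was 14.2 in the kEpiSC list with reciprocal overlap, 17.3 and 13.9 with peaks up to 1000 bp apart, 12.7 in the EpiSC list with equal lengths, and 22.0 and 14.9 with the stricter q. Strata by fold gave 14.2 and 11.1, and by −log10 q 13.2 and 10.6. The promoter difference in the EpiSC list was -4.06 (standardised -4.11) with equal lengths, -5.12 with the stricter q, -7.89 (standardised -8.11) with a promoter of 5 kb upstream to 1 kb downstream, and -4.25 and -4.47 standardised by fold and −log10 q. In the kEpiSC list it was -4.62 with reciprocal overlap and -6.87 with equal lengths. Within 50 kb of a TSS, 5389 genes had a peak in EpiSCs alone. Leaving out the Pou5f1 region, an alternative chosen after seeing the data, moved none of these values beyond their intervals. The summit reads, with medians of 10 and 14, limit what can be said of single weak peaks.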
